A study of Capra hircus with 2 samples.

Results

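The miR-183, miR-96 and miR-182 cluster is a group of 3 microRNAs (miRNAs) whose genes lie side by side. Its members were taken from the deposited table of known miRNAs as every name of miR-182, miR-183 or miR-96, whatever the species prefix, the arm or the annotation of the ends. This gave 5 of 587 distinct names: 3 from the 5′ arm, which are the main products, and 2 from the 3′ arm of miR-182 and miR-183.

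The data come from small RNA sequencing of endometrium, the lining of the uterus, of Xinong Saanen dairy goats aged 24 months. The pre-receptive library (P) came from day 5 of gestation and the receptive library (R) from day 15, the phase in which the embryo can attach. Each library held the RNA of 9 goats out of 10 collected, mixed into 3 samples and sequenced 3 times, and the table has 1 value per miRNA for each library. Reads listed under known names, summed over names, came to 4032588 for P and 1880606 for R. Some names have the same mature sequence, so these sums count some reads more than once. An example is oar-miR-10a_R+1_1ss12TA and oar-miR-10b_L+1R-1, at 565100 and 617541 reads in P. There was 1 library per phase, so the sequencing gives no replicate check of any difference below. Every interval and test compares these libraries and not the phases. The study also measured miR-182 and miR-183 by stem-loop PCR in both phases, and those values were not used here. Small RNAs were read in bulk tissue, where more cells of a type and more RNA per cell cannot be told apart.

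The 3 miRNAs of the cluster are made from a common primary transcript in vertebrates and are best known from sensory organs such as the inner ear and the retina, and from epithelial tumours. Like other miRNAs, each pairs through its seed, bases 2 to 8 from the 5′ end, with sites in messenger RNAs and lowers the output of these messengers. FOXO1, a transcription factor that takes part in decidualization of the human endometrium, is a known target of members of this cluster.

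The mature sequences are shown to compare the seeds of the members. They are written 5′ to 3′ as listed in the table, in DNA letters and with bases 2 to 8 in capitals. The miR-183 entry lacks the first base of its database reference, and this reference follows it. The name of an entry gives such a difference at its left (L) or right (R) end.
bta-miR-182: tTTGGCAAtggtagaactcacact
bta-miR-96: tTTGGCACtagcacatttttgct
bta-miR-183_L-1: aTGGCACTggtagaattcactg
bta-miR-183, reference: tATGGCACtggtagaattcactg
hsa-miR-182-3p_L+2R-1: gGTGGTTCtagacttgccaact
hsa-miR-183-3p_L-1: tGAATTACcgaagggccataa

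miR-182 and miR-96 shared their first 7 bases, and within the seed they differed at A8C, with positions counted from 1 at the 5′ end of miR-182. Beyond the seed they had little in common, and 12 of 23 aligned bases were identical. miR-182 and the miR-183 reference were the more alike pair, with 18 of 23 bases identical and a common run of 8 bases from base 9 to base 16. Their seeds differed at T2A and A8C. Thus miR-182 had its seed, up to the last base, in common with miR-96 and its middle in common with miR-183.

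Because miR-183 was listed without its first base, its seed was moved by 1 position. Bases 2 to 8 of the listed miR-183 are bases 3 to 9 of miR-96, and they do not occur in miR-182. The table lists for each entry the read with the best mapping score, so it does not give how many miR-183 reads began at this base.

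Outside the 3 main products, no name of the known miRNAs had bases 2 to 8 of one of them. With bases 2 to 7, the listed miR-183 was joined by a miR-1271 entry that also lacked its first base. The full reference of miR-1271 has the seed of miR-96, and the entry had 0 reads in R and 1 read in P. The 3′ arm of miR-182, which was listed with 2 extra bases at its left end, had its seed in common with the 5′ arm of miR-203, at 5 reads in R and 0 in P. The reference of this 3′ arm had bases 2 to 7 in common with mdo-miR-152-5p, at 36 reads in R and 39 in P. The predicted candidate PC-5p-807612_1 also had these bases. No name among 621 predicted candidates had bases 2 to 7 of a main product.
bta-miR-1271_L-1_1ss2TC: cTGGCACCtagtaagtactca
bta-miR-1271, reference: cTTGGCACctagtaagtactca
mmu-miR-203-5p_1ss11GA: aGTGGTTCttaacagttcaaca

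In the RefSeq gene table of the goat assembly ARS1.2, MIR183, MIR96 and MIR182 followed each other in this order with no other gene listed between them. The protein-coding neighbours were UBE2H on the side of MIR183 and NRF1 on the side of MIR182. The deposited list of species placed a mir-182 entry in 14 of 23 species, a mir-183 entry in 12 and a mir-96 entry in 8. All 3 were listed for 7 species, among them cow, human, mouse, dog and platypus, and none was listed for sheep.

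The first comparison asked how the level of each member differed between the receptive and the pre-receptive library. All 3 main products were higher in R. miR-182 was the leading member in both libraries, and miR-96 was the least abundant of them in R. miR-183 had the largest ratio. The adjusted Fisher's exact tests of pairs given further on did not separate this ratio from those of the others. The adjusted mid-p exact test separated it from that of miR-96 only. Levels are given as normalized expression (NE), the authors' value per miRNA and library, which equals reads divided by a size factor of the library. In these values 1 read was worth 0.860 NE in R and 1.16 NE in P, and all 5 names had whole reads. Intervals are 95% exact (Clopper-Pearson) intervals and cover counting error only, since amplified reads cannot be counted as separate molecules.

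miR-182, the member most studied in epithelial tumours, had 3519 NE in R (4092 reads) and 242 NE in P (208 reads). It was the 40th most abundant of 532 names detected in R and the 121st of 502 in P. Its log2 ratio was thereby 3.86, within 3.66 and 4.07. A moderately abundant miRNA of the pre-receptive library was thus among the 40 most abundant of the receptive library.

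miR-183 had 154 NE in R (179 reads) and 3.49 NE in P (3 reads). The ratio was 44.1-fold, with a counting interval of 14.9-fold to 216-fold, and the exact p of Fisher's test (two-sided, member reads against all other clean reads) was 2.75e-59. The wide interval comes with the 3 reads of P, and its lower end on the log2 scale was 3.89. miR-183 was nearly absent from the pre-receptive library and well detected in the receptive one.

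miR-96, in which seed mutations are known to cause progressive hearing loss, had 31.8 NE in R (37 reads) and 4.65 NE in P (4 reads). Its log2 ratio was 2.77, with an interval of 1.30 to 4.72 and an exact p of Fisher's test of 7.48e-10. In R the order miR-182, miR-183, miR-96 was clear, as their counting intervals did not overlap. In P the 4 reads of miR-96 and the 3 reads of miR-183 could not be ordered (exact binomial p = 1.00).

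The 3′ arms were at the limit of detection. The miR-182 3′ arm had 2 reads in R (1.72 NE) and the miR-183 3′ arm had 1 read (0.860 NE). Both had 0 reads in P, where the limit of 3 reads stands for 3.49 NE, so that no fold is given for them. Of the miR-182 reads in R, 0.0489% came from the 3′ arm (exact interval 0.00592% to 0.176%). In P it was 0 of 208 reads (exact interval up to 1.76%).

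**Figure D1:**
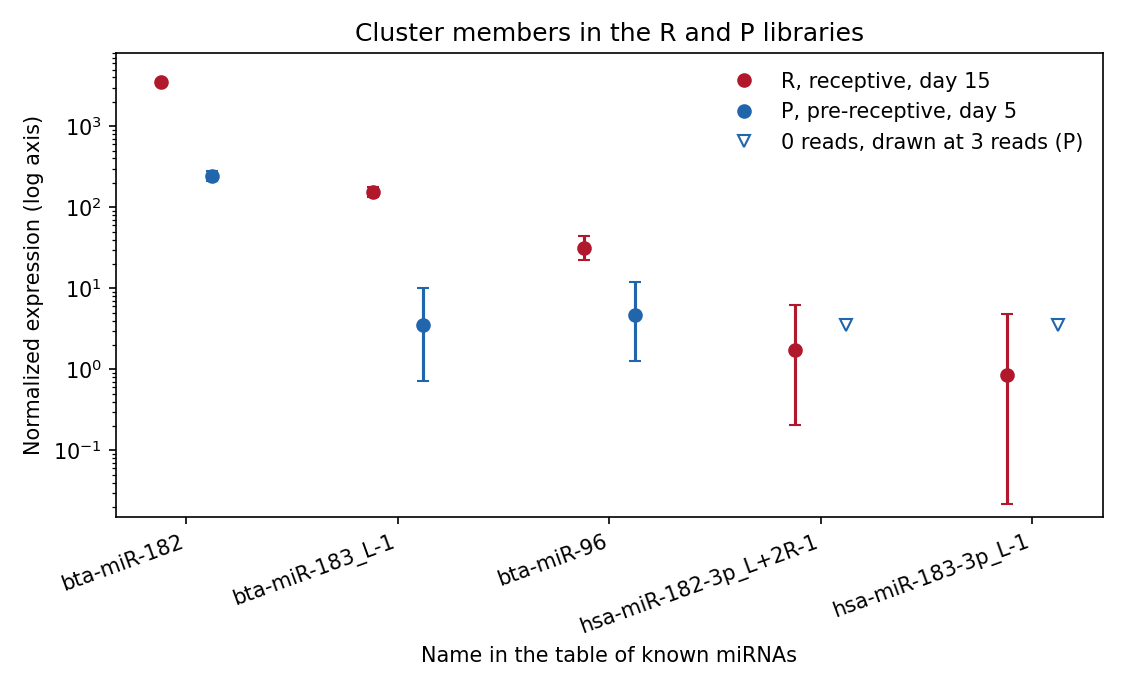
Normalized expression of the 5 names of the cluster (log axis) in the receptive library (R) and the pre-receptive library (P), 1 library each. Points are the deposited values, bars are 95% exact Poisson intervals of the reads, and open triangles mark 0 reads, drawn at the limit of 3 reads. The 3 main products lie higher in R without overlap of their intervals, and the 3′ arms have 2 reads or fewer.

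Of 438 known names with at least 1 NE in 1 library and a value above 0 in both, 100 (22.8%) were past 2-fold higher in R, and so were the 3 main products, while the 3′ arms could not be tested. In 40 of the 438 names (9.13%) the whole interval of the log2 ratio was above 1, and these included the 3 main products. By log2 ratio miR-183 ranked 2nd, miR-182 5th and miR-96 18th among the tested names. The median log2 ratio was 0.03 over all tested names and 3.86 over the 3 members.

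The direction was the same with every scaling tried, but the size was not. No scaling lowered a log2 ratio by more than 0.024, so none could turn those of the main products. Every log2 ratio was 0.78 higher on the basis of clean reads and 1.54 higher on the basis of the reads listed for known miRNAs. The sums of listed reads count some reads more than once. The balance of all tested names moved with the scaling. Past 2-fold, 100 names were higher and 72 lower with the deposited values, 195 and 30 with the clean reads, and 316 and 13 with the listed reads. The log2 ratio of miR-182 was 3.86 with the deposited values, 4.65 with the clean reads and 5.40 with the listed reads, and the lowest value of miR-96 over these scalings and the other settings tried was 2.54.

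Summed over its 5 names, the cluster had 3707 NE in R (4311 reads) and 250.0 NE in P (215 reads). The sum was 14.8-fold higher in R, with an interval of 12.9-fold to 17.1-fold. As a part of the reads summed over known names, the cluster made up 0.229% in R (0.222% to 0.236%) and 0.00533% in P (0.00464% to 0.00609%). These intervals do not cover the reads counted more than once in the sums, without which both shares would be higher. The cluster was a small part of the miRNAs of either library, and of the receptive library a larger one.

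The second comparison asked whether the composition of the cluster differed. miR-182 made up most of the cluster reads in both libraries, with 95% in R (94.3% to 95.6%) and 96.7% in P (93.4% to 98.7%). miR-183 made up 4.18% in R (3.60% to 4.82%) and 1.40% in P (0.289% to 4.02%). miR-96 made up 0.858% in R (0.605% to 1.18%) and 1.86% in P (0.509% to 4.69%). The intervals of each share overlapped between the libraries.

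Ratios between members within a library do not depend on scaling. There were 4.84 reads of miR-183 for each read of miR-96 in R and 0.750 in P. The odds ratio was 6.37 (exact interval 1.03 to 45.3), with an exact p of 0.0229 in Fisher's test and of 0.0687 after Benjamini-Hochberg adjustment over the 3 pairs. With the mid-p exact test the adjusted value was 0.0383, so that the call depended on the test.

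For each read of miR-183 there were 22.9 reads of miR-182 in R and 69.3 in P. The odds ratio of miR-183 over miR-182 was 3.03 (exact interval 1.01 to 15.0), with an exact p of 0.0474 and an adjusted exact p of 0.0710. miR-182 over miR-96 was 111 in R and 52.0 in P, with an odds ratio of 2.13 (0.545 to 6.0) and an exact p of 0.138. After adjustment by the main test no pair passed 0.05. With 3 and 4 reads of miR-183 and miR-96 in P, the lower ends of both miR-183 intervals lay close to 1 and the upper ends far above it.

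The cluster was next compared with the miRNAs most like it in tissue, those known from epithelium (the miR-200 family with miR-141 and miR-429, miR-203, miR-205 and miR-375) and from ciliated epithelium (miR-34 and miR-449). The most abundant name of each of 9 families was set against miR-182 in Fisher's exact test, with adjustment over the 9 comparisons. miR-182 was raised more than 5 of them and less than 1, and in 3 comparisons the interval held 1.

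Among epithelial miRNAs, miR-141, a miR-200 family member that keeps the epithelial state by repressing ZEB1 and ZEB2, was the most abundant at 28337 NE in R and 5791 NE in P. miR-182 was raised 2.97 times as much (2.58 to 3.44, adjusted exact p = 4.39e-67). Against miR-200c, at 1556 and 316 NE, the odds ratio was 2.96 (2.44 to 3.59, adjusted exact p = 5.10e-29). The difference between the libraries was therefore larger in miR-182 than in these epithelial miRNAs, whatever the scaling.

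The gap was smaller for miR-203, a miRNA of differentiating keratinocytes, at 1897 NE in R and 230.3 NE in P, where the odds ratio was 1.77 (1.44 to 2.17, adjusted exact p = 7.86e-08). For miR-375, known from pancreatic islets and other secretory epithelia, at 882 and 89.5 NE, it was 1.48 (1.11 to 1.94, adjusted exact p = 0.00961). Against the 5′ arm of miR-200a, its only listed name, at 451 and 39.5 NE, it was 1.28 (0.851 to 1.86, adjusted exact p = 0.240). miR-429 and the 3′ arm of miR-205, its only listed name, had 3 reads and 1 read in P, so that their intervals, 0.202 to 3.17 and 0.124 to 82.0, were too wide to place miR-182 against them.

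The ciliated miRNAs lay on either side. miR-34c had 2778 NE in R and 1090 in P, and the odds ratio of miR-182 against it was 5.71 (4.87 to 6.71, adjusted exact p = 1.10e-131). miR-449a, which promotes the formation of multiciliated cells, had 1843 NE in R and 16.3 NE in P (14 reads), and here the odds ratio was 0.129 (0.0689 to 0.221, adjusted exact p = 2.63e-22). miR-182 was thus raised more than miR-34c and less than miR-449a.

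**Figure D2:**
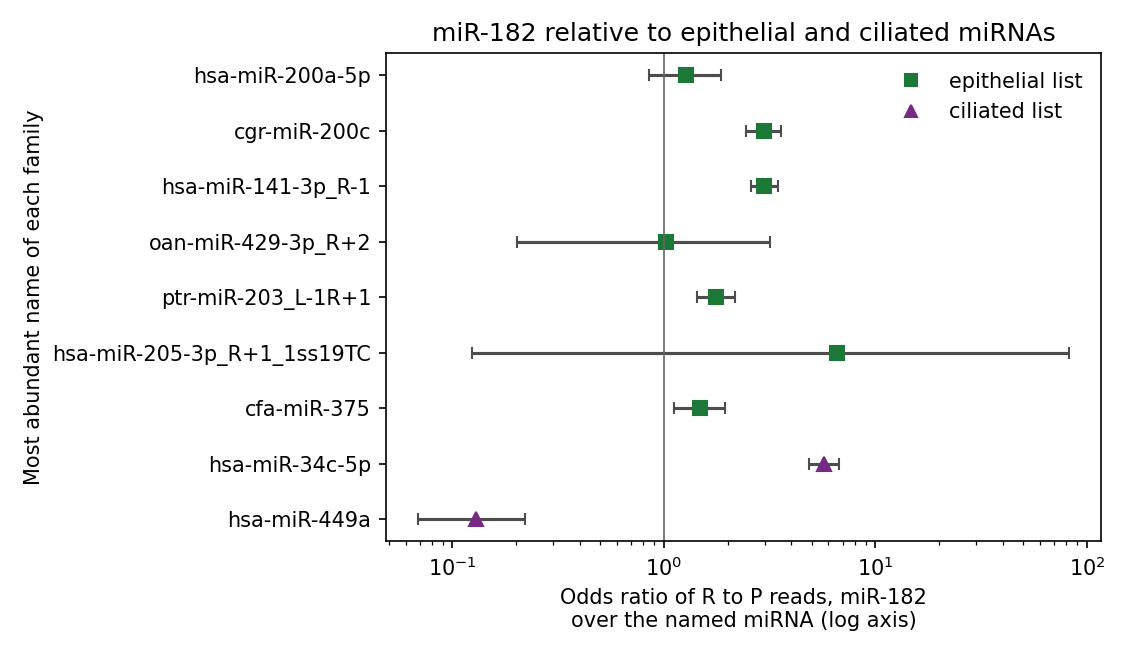
Odds ratio of the R and P reads of miR-182 over the most abundant name of each of 9 epithelial or ciliated families (log axis), with 95% exact intervals. Values above 1 mean a larger rise of miR-182. Of the 9 intervals, 5 lie above 1, that of miR-449a lies below 1 at 0.129, and those of the 5′ arm of miR-200a, miR-429 and the 3′ arm of miR-205 hold 1.

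By the log2 ratio over the 2 libraries, the names most like miR-182 among 273 with at least 10 reads in each library were hsa-miR-200a-5p at 3.51, cfa-miR-375 at 3.30 and ptr-miR-203_L-1R+1 at 3.04. They differed from miR-182 by 0.35, 0.56 and 0.82. Only hsa-miR-449a at 6.82 and hsa-miR-187-3p_R+1 at 4.73 were above miR-182 among these names. Of the last 2, miR-187 was named after its value was seen.

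Markers of cell types were compared between the libraries, on the scale of the deposited values as follows. All 12 names of the epithelial list were higher in R, with a summed level of 34929 NE in R and 6747 NE in P. Their median log2 ratio was 2.73 over 11 names above 0 in both libraries, and 2.51 with the remaining name set to the limit of 3 reads in P. No name of miR-200b was listed. For names with few reads, such as hsa-miR-200c-5p_L+1R-1 with 2 reads in R and 1 in P, the counting interval held 0 (-3.70 to 6.45). miR-182 is not on this list, and its level equalled 10.1% of the summed list in R and 3.58% in P, 2.81 times as much in R.

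All 10 names of the ciliated list were higher in R, with sums of 7406 and 2071 NE and a median log2 ratio of 1.35 over 7 names, the other 3 being at 0 in P. The most abundant was miR-34c, given above. The list takes every miR-34 name, and hsa-miR-34a-5p had 2522 NE in R and 830 NE in P of these sums. All 12 names of the muscle list were lower in R, with sums of 292641 NE in R and 1883324 NE in P and a median log2 ratio of -2.42 over 11 names. Some of these names had few reads and counting intervals that held 0, such as hsa-miR-499a-3p_R+1 with 1 read in each library. The muscle median stayed below 0 on the basis of clean reads (-1.63) and of listed reads (-0.88), where 1 and 4 of the 12 names were higher in R, and no miR-206 name was listed. The most abundant name of the muscle list, aja-miR-143_1ss22GT of smooth muscle, held 289634 NE in R and 1866274 NE in P. This was 17.9% and 39.8% of the NE summed over names, in which some reads count more than once. The cluster and the epithelial list were thus high in the library in which muscle miRNAs were low. The part of epithelium and muscle in the result for the cluster was not tested.

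With the deposited values the other 4 lists had medians closer to 0 than the muscle list, while with the clean reads the muscle median was closer to 0 than the leukocyte median, and with the listed reads it was closer than all 4. The fibroblast list (most abundant oar-miR-199a-3p) summed to 97321 and 97155 NE, with 2 of 7 names higher in R and a median log2 ratio of -0.05, which turned to 0.73 with the clean reads and 1.49 with the listed reads. With either of these scalings all 7 fibroblast names were higher in R. The red blood cell list (cgr-miR-486-5p) summed to 6107 and 9425 NE, with 3 of 6 names higher in R and a median of -0.16 that turned to 0.62 and 1.37. On these scales 4 and 6 of its 6 names were higher in R. The endothelium list (hsa-miR-126-5p) summed to 32841 and 21288 NE, with 4 of 5 names higher in R and a median of 0.47, which was 1.25 with the clean reads and 2.0 with the listed reads. The leukocyte list (cgr-miR-142-5p_L-2R+1) summed to 7463 and 4920 NE, with 4 of 5 names higher in R and a median of 1.17 over 3 names, which was 1.96 and 2.71 on these scales. The endothelium and leukocyte lists each had all 5 names higher in R with the clean reads and with the listed reads. No miR-150 name was listed, and miR-223 had 1 read in R and 0 in P.

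Names of miRNA entries known to match pieces of ribosomal or transfer RNA were also higher in R. All 8 names of this list, made after the values had been seen, were higher in R by more than 2-fold, with sums of 8054 and 2113 NE and a median log2 ratio of 1.94 (2.72 with the clean reads and 3.47 with the listed reads). The most abundant, hsa-mir-7641-2-p3_1ss22TC, had 3564 and 929 NE. Of the 13 families of the list, 7 had no listed name. The part of such pieces in the result for the cluster was not tested.

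The authors' table of predicted targets was used to compare the messengers that the members could act on. It pairs 142 miRNA names with 7608 identifiers and holds the 3 main products but neither 3′ arm. The study counts these identifiers as mRNA transcripts, so they need not be distinct genes. miR-182 had 756 identifiers (9.94% of all), miR-183 had 712 (9.36%) and miR-96 had 579 (7.61%), where the median of the 142 names was 578.5. Together the members covered 1551 identifiers, or 20.4% of all.

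miR-183 and miR-96 shared 311 identifiers, which were 43.7% of the miR-183 list and 53.7% of the miR-96 list. For each of them the other shared more identifiers than any other name of the table did. miR-182 and miR-96, with their first 7 bases in common, shared 141 identifiers, 18.7% of the miR-182 list and 24.4% of the miR-96 list. miR-182 and miR-183 shared 124, or 16.4% and 17.4%.

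For comparison, the median share of a member's list held by another name of the table was 13.4% for miR-182, 13.6% for miR-183 and 14.5% for miR-96. The overlap of the listed miR-183 with miR-96 stood far above this level, and the overlaps of miR-182 with either were smaller. By shared identifiers miR-96 ranked 31st and miR-183 51st of 141 names for miR-182, while miR-182 ranked 12th for miR-96 and 40th for miR-183. The 7 bases of the listed miR-183 seed that recur in miR-96 at bases 3 to 9 were given with the sequences above. Whether the predictions used the listed or the reference end of miR-183 is not given in the sources used here.

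**Figure D3:**
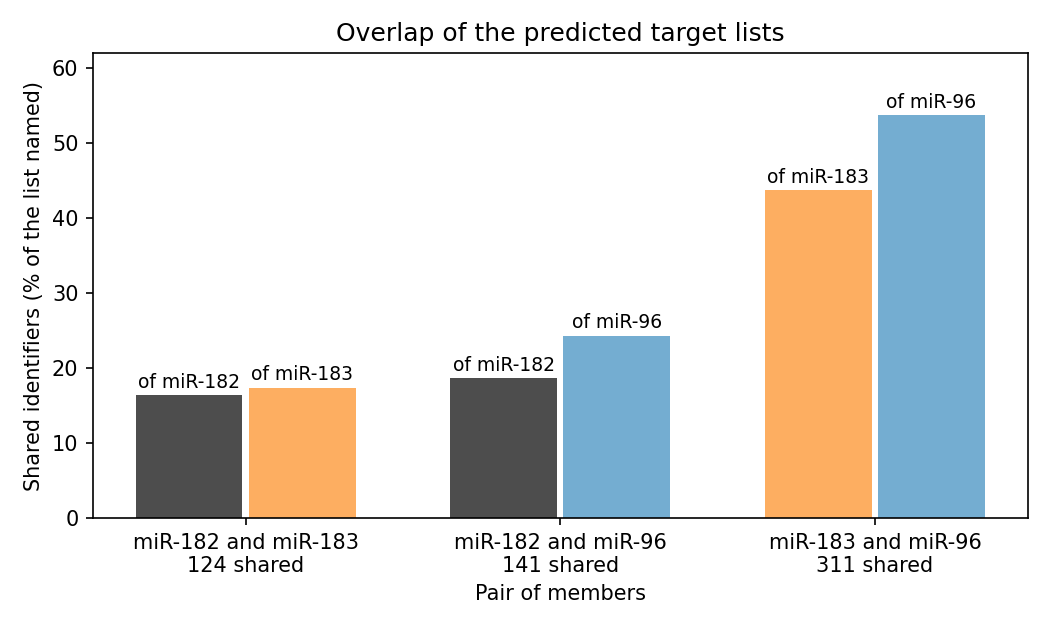
Identifiers shared by each pair of members in the authors' table of predicted targets, as a percentage of each member's own list. The pair of miR-183 and miR-96 shares 43.7% and 53.7%, and both pairs with miR-182 share 16.4% to 24.4%.

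Of the miR-182 identifiers, 571 (75.5%) were predicted for neither other member, against 50.1% of the miR-183 and 35.8% of the miR-96 identifiers. The most abundant member therefore had the list most of its own. All 3 members shared 80 identifiers. These carried a median of 32 miRNA names each, from 5 to 64, where the whole list of each member had a median of 18 to 20. Being shared by 3 lists by itself selects identifiers that carry many names. None of the 7608 identifiers matched the RefSeq gene table of ARS1.2, and gene names are therefore not given.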

How the data were processed

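Small RNA of goat endometrium was measured in 1 receptive (R) and 1 pre-receptive (P) library (TruSeq Small RNA kit, 36 bp single-end reads). The authors removed adapters, junk, Rfam and repeat reads with ACGT101-miR, kept 18 to 26 nt, matched the rest to miRBase 20.0 and the goat genome (build not given in the sources used here), and deposited for each known miRNA a normalized signal per library. These values do not follow the stated scaling to clean reads. They are reads divided by a size factor, and some are simple fractions of a read. Targets had to be predicted by both TargetScan and a second program, which the study calls miRanda in its methods and Mireap in its results. The table of differential expression holds the authors' fold ratios and P-values and was not used, nor were the candidate values, whose library labels are exchanged between 2 tables. For the main products the library labels used here are the same as those of the values printed in the study. In the target table only the identifiers of the gene column are paired with the miRNA of their row, and its transcript column lists each identifier once.

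The members and lists were chosen with earlier results of these data known. Repeated names were counted once (587 names from 641 entries). Reads were recovered by dividing by the worth of 1 read and rounded, and 79.1% of R and 83.1% of P values were whole within 0.01 read. The study's clean reads were 4233874 in R and 5386427 in P, and 3 reads equal 2.58 NE in R and 3.49 NE in P. Ratios and shares have 95% exact (Clopper-Pearson) intervals. Fisher's exact test (two-sided) compared reads of a member with the other clean reads, pairs of members, and miR-182 with the most abundant name of each epithelial or ciliated family, with Benjamini-Hochberg adjustment. Names were tested with at least 1 NE in 1 library and above 0 in both. Named were all members, names sharing bases 2 to 7 or 2 to 8, the most abundant name of each list and the 3 names nearest to miR-182 with at least 10 reads in each library. Lists of known target genes could not be used without gene names. Alternatives were 4 other scalings, a pseudocount of 1 NE, a limit of 3 reads, 5′ arms only, the mid-p test, Holm adjustment and other filters. The intervals were tested on simulated Poisson counts, which have no variation beyond counting and so test the calculation only. Calculations used scipy 1.17.1, pandas 2.3.3 and numpy 2.4.6 under Python 3.11.15, and plots matplotlib 3.10.9.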

Additional observations from a re-analysis of the deposited data

How the results depend on the processing

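The log2 ratio of each main product and of the summed cluster was above 0 with the main values and in 5 alternatives (4 scalings and a pseudocount), from 3.84 to 5.40 for miR-182, 5.11 to 7.00 for miR-183, 2.54 to 4.31 for miR-96 and 3.87 to 5.43 for the sum. The limit of 3 reads could not change them, since each main product had at least 3 reads in P, and Fisher's test used the clean-read scale. The 4 scalings lowered no log2 ratio by more than 0.024, too little to turn those of the main products. The shares of the members stayed within their intervals with 5′ arms only, while unrounded reads and normalized values give the same shares by construction, as all 5 names have whole reads. The relative change of miR-183 and miR-96 passed 0.05 only with the mid-p exact test (adjusted p = 0.0383). The number of names past 2-fold, 100, was 40 when the whole interval had to be above 1 and 195 with the clean reads. Counting the unpaired transcript column in place of the gene column, each pair of members shared 0 identifiers, since the transcript column lists each identifier once. Summing all names of a family, an alternative chosen after seeing the data, left the side of 0.05 and the direction as they were in the 5 comparisons with miR-182 that it could change, the other 4 families having 1 name each. Depth limits miR-183 and miR-96, with 3 and 4 reads in P, and the 3′ arms. Each phase has 1 library of mixed RNA, so variation between goats is not covered by any interval. No paired analysis was possible because there was 1 library per phase.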

Other observations

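The stem-loop PCR primers that the study lists for 2 members were compared base by base with the known and candidate sequences. They belong to the study's own PCR comparison of these members between the phases, whose outcome is given in the study and was not used here. The reverse transcription primers of miR-182 and of miR-183_L-1 both ended in 8 bases that are the reverse complement of the 3′ end of the listed sequence. The forward primer of miR-183_L-1 carried the first 15 bases of the listed miR-183, so that it began at the second base of the database reference. The specific part of the forward primer listed for miR-182 had 16 bases, and its longest run in common with miR-182 was 3 bases. All 16 bases occurred in a single entry of the known and candidate tables, bta-miR-2284x_R+1, a name singled out after the comparison was made. They are shown in capitals in that entry.
forward primer listed for miR-182, specific part: tgaaaagttcgttcgg
bta-miR-2284x_R+1: TGAAAAGTTCGTTCGGgttttt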
